A study of Drosophila melanogaster with 2 samples.

Results

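The genes that encode the basic helix-loop-helix (bHLH) transcription factors of Drosophila melanogaster were examined for peaks of the CG9932-eGFP fusion protein. The 39 genes were chosen by symbol, from the 13945 protein-coding genes annotated on 2L, 2R, 3L, 3R, 4 and X, and the rule uses no measured value. The genes and their classes were, however, chosen with earlier results of these data known. Of the symbols, 38 are in the annotation as listed. The remaining one, dys, is given in the RefSeq gene table as a synonym of both dysf (dysfusion, a bHLH-PAS gene) and Dys (the dystrophin gene), and dysf was taken, so dys below stands for dysf.

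The data are chromatin immunoprecipitation sequencing (ChIP-seq) of 2 samples, labelled biological replicates 1 and 2 of 1 group. Both are whole embryos, 8 to 24 h old by the source name (a separate age label differs from it), from transgenic flies that make CG9932 fused to enhanced GFP, precipitated with a GFP antibody. The labels do not name the promoter that drives the fusion, no control sample was analysed here, and whole embryos mix all cell types, so a peak cannot be placed in a tissue. The values are peaks on the dm6 genome, each with a summit (its highest point) and a signal given by the authors' peak caller. No read depth is given, so its effect on precision is unknown.

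bHLH proteins act as dimers: the helix-loop-helix joins the partners and the basic region reads the E-box, a short DNA sequence written CANNTG. Proneural factors such as Achaete and Atonal pair with Daughterless to turn ectoderm cells into neural precursors, and Twist and Nautilus direct mesoderm and muscle development. PAS factors carry a further protein contact surface, and many pair with Tango or Cycle in trachea, midline, hypoxia and clock control. The leucine zipper class joins Myc and Mnt to Max, and Mondo to Bigmax, in growth and sugar responses. The measurements here concern the DNA at these genes, not the bHLH proteins themselves.

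A summit within 500 bp of a transcription start site (TSS) was found at 12 of the 39 bHLH genes (30.8%) in the conservative set. The deposited descriptions list both replicates among the inputs of this set. A peak in it need not be in either replicate's own set. The share over all protein-coding genes was 29.9%, so the family as a whole lay near the background. The replicates' own sets gave 11 bHLH genes in replicate 1, where 30.1% of all protein-coding genes had a promoter summit, and 10 in replicate 2, where 23.9% did. The 12 genes were bigmax, tai, Max, da, trh, sima, hry, dys, emc, Mnt, gce and sim. In both replicates' own sets 8 of them had a promoter summit, da and emc had one in replicate 1 only, and sim and gce had one in neither.

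The classes differed in their counts. None of the 8 proneural genes (ac, sc, l(1)sc, ase, ato, amos, cato, tap), none of the 3 Fer genes (Fer1, Fer2, Fer3) and none of the 4 mesodermal genes (twi, nau, HLH54F, Hand) had a promoter summit, in the conservative set or in either replicate's own set. The PAS class had 6 of 11 genes bound in the conservative set (54.5%, against 29.9% of all protein-coding genes), and 4 of 11 (36.4%) in each replicate's own set, against 30.1% of all genes in replicate 1 and 23.9% in replicate 2. The Myc-Max-SREBP class had 3 of 6 bound in the conservative set (50%), and among the peaks of each replicate alone 4 (replicate 1) and 5 (replicate 2). The E protein da and the Id-like gene emc were both bound, the Hes-Hey class had 1 of 4 bound (25%), and crp, the AP-4 gene, had no promoter summit in the set. The classes hold 1 to 11 genes, and no test of the differences was made.

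**Figure D1:**
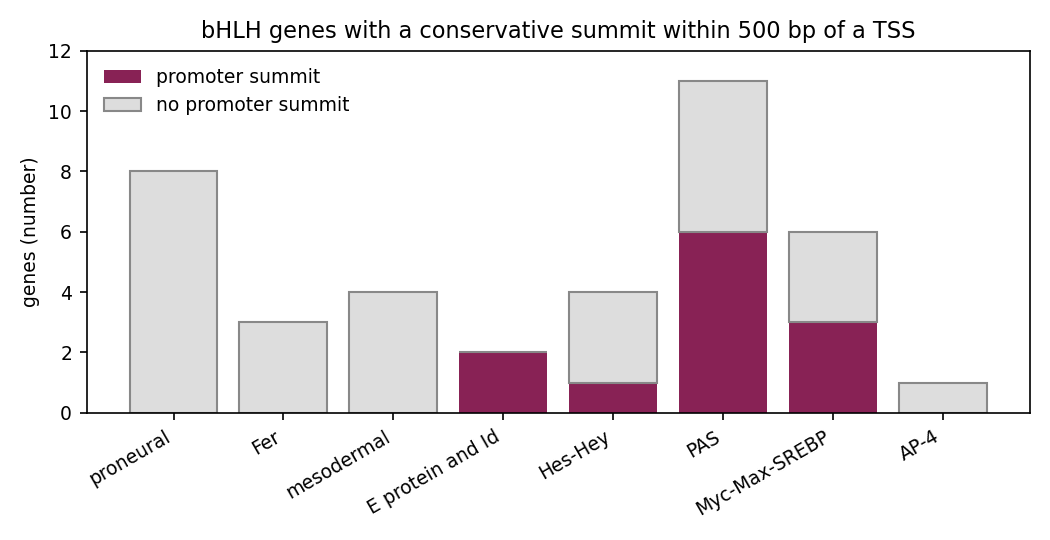
Bars give the number of bHLH genes in each class (vertical axis, genes), coloured part with a conservative summit within 500 bp of a TSS and grey part without. The proneural, Fer and mesodermal bars are wholly grey, and 6 of 11 PAS genes and 3 of 6 Myc-Max-SREBP genes are coloured.

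The classes also differ in gene structure. All 8 proneural genes have 1 annotated TSS and are 0.712 to 2.43 kb long, and 14 of the 15 proneural, Fer and mesodermal genes have 1 TSS. Of the 11 PAS genes 8 have more than 1 TSS, and the class runs from 2.17 to 83.4 kb. Over the family, 4 of the 27 genes with 1 TSS were bound, where 24.0% of all such protein-coding genes were, and 8 of the 12 genes with more than 1 TSS, where 46.0% of all such genes were. The part of TSS number and gene length in the class counts was not tested.

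The signals of the 12 genes were mostly modest for promoter summits. The strongest was at bigmax (signal 701, above 89.1% of the 3467 promoter summits of the set) and the weakest at sim (92.5, above 11.2% of them). The median over the 12 genes was 188, against 216 over all promoter summits, and 4 of the 12 lay above that median. The summits lay upstream of the nearest TSS of the gene at 11 of the 12 genes (91.7%), with emc as the exception, against 82.1% of all promoter summits. Their median position was -166.5 bp, against -75 bp for all promoter summits. Farther than 200 bp from the TSS were 5 of the 12 summits (41.7%), against 20.1% of all promoter summits. For all promoter summits, position was measured from the nearest TSS of any protein-coding gene. For the 12 genes it was measured from their own TSS, so the positions are not on the same measure.

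**Figure D2:**
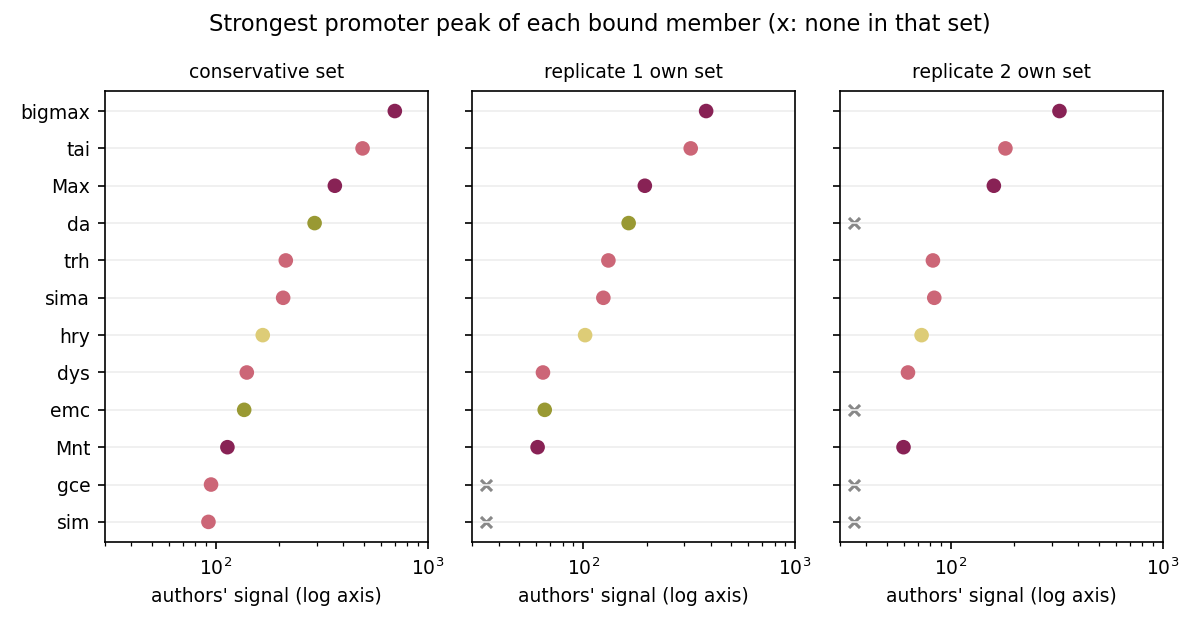
Each point is the authors' signal of the strongest promoter peak of a gene (horizontal log axis, no unit) in the conservative set and in each replicate's own set, coloured by class (PAS pink, Myc-Max-SREBP purple, E protein and Id olive, Hes-Hey yellow), and a cross marks a gene with no promoter summit in that set. The bigmax, tai and Max points are the 3 highest in every panel, and crosses stand at gce and sim in both replicate panels and at da and emc in that of replicate 2.

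The 3 strongest of these summits, and none of the other 9, also lay within 500 bp of the TSS of another protein-coding gene, which in each case was the nearer one. At bigmax the summit was at -165 bp from its own TSS and 78 bp from that of Hmu. At tai it was at -168 bp and 96 bp from the TSS of CG9586, and at Max at -129 bp and 91 bp from the TSS of Mettl5 and CG42374, within both of those genes. Distance alone thus gives these 3 peaks to the neighbour. How often promoter summits in general also lie within 500 bp of the TSS of another gene was not counted. Whether such sharing goes with a high signal over all promoter summits was not tested. The 101 bases around the summit are shown for bigmax and tai, the genes with the highest signals, in lower case throughout since no searched motif matched within them, 5' to 3' on the strand of the named gene, read from the RefSeq Release 6 genome, which has dm6 coordinates. They lie at chr3R:27288641-27288741 (minus strand, bigmax) and chr2L:9166560-9166660 (plus strand, tai).
bigmax: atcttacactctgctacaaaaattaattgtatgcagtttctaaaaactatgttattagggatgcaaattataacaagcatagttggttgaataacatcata
tai: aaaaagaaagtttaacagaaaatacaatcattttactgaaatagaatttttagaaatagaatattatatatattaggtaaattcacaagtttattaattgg

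The stretches at bigmax and tai are rich in A and T, as is that at Max. The G+C content was 27.7% at bigmax, 17.8% at tai and 26.7% at Max. Over the 12 genes it ran from 17.8% to 55.4%, with a median of 38.6%, and the median over all promoter summits was also 38.6%. Under 30% were 5 of the 12 (41.7%), against 23.8% of all promoter summits.

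Among the common partners, da encodes Daughterless, the E protein with which the proneural and many other bHLH proteins dimerise, and emc encodes Extramacrochaetae, which lacks a basic region and holds its partners off DNA. The da peak had a signal of 293 in the conservative set and 164 in the set of replicate 1, and the ranked list of replicate 2 held no peak with its summit within 500 bp of the da TSS. The emc promoter peak (3L, 749239 to 749608) had signals of 136 and 65.9 in the same sets, with its summit 24 bp downstream of the TSS in the 5' UTR. In replicate 2 the best emc promoter peak had a score of 752, under the 830 that the sets require. A stronger emc peak lay in its intron, 2513 bp downstream of the TSS, and was in both replicates' own sets (246 in the conservative set, 121 in replicate 1 and 131 in replicate 2). Both emc summits also lie within the annotated span of hng3.

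Of the PAS genes, tai, whose product Taiman is a coactivator of the ecdysone receptor and of juvenile hormone signalling, had the strongest promoter peak (494 in the conservative set, 322 in replicate 1 and 181 in replicate 2). At trh, which directs tracheal and salivary duct development, the peak (3L, 377529 to 377898) had signals of 214, 132 and 82.5 in the same 3 lists. It was at -398 bp from the second of its TSS, and so lay in an intron of the longer transcripts. The sima gene, which encodes the hypoxia-inducible factor alpha subunit, had signals of 208, 124.6 and 83.7, at -133 bp from the TSS farthest upstream. At dys, a regulator of tracheal fusion cells, they were 140, 64.7 and 62.9, at -439 bp. These 4 genes were bound in each of the 3 lists.

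The remaining PAS genes had weaker promoter evidence or none. The peaks of sim, the midline regulator (92.5, 3 TSS, at -283 bp), and of gce, a juvenile hormone receptor gene (95.2, at -67 bp from the third of its TSS), were in neither replicate's own set. Near the TSS of sim the best scores were 46 in the ranked list of replicate 1 and 62 in that of replicate 2, and near the TSS of gce they were 516 and 389. The common partners tgo and cyc, the dioxin receptor homologue ss, the clock gene Clk and the juvenile hormone receptor gene Met had no promoter summit. Best scores within 500 bp in the ranked list of the conservative comparison were 92 for tgo, 34 for ss and 160 for Clk, and no ranked peak lay there for cyc and Met. For ss the best score was 688 in the ranked list of replicate 1 and 115 in that of replicate 2. The nearest set summit to cyc was strong (897) and lay at -2169 bp from its TSS.

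In the Myc-Max-SREBP class, the peaks of bigmax and Max were found in every list. The bigmax peak (3R, 27288520 to 27288832) had signals of 701 in the conservative set, 381 in replicate 1 and 326 in replicate 2. At Max the strongest promoter peak (3L, 19264224 to 19264410) had 365, 196 and 160, and a weaker one (88.4, at +486 bp) was in neither replicate's own set. At Mnt, which encodes the Max partner that opposes Myc, the promoter peak (X, 3687837 to 3688206) had 114, 61.0 and 59.9, at -213 bp from the second of its 3 TSS. Myc itself had no promoter summit and no ranked peak within 500 bp in the conservative comparison. A peak of replicate 1 near the Myc TSS had a score of 813, just under the limit of 830.

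Mondo and SREBP showed how the limits of the rule act. At Mondo, which encodes a sugar-sensing factor, replicate 1 had a promoter peak of signal 165 at -64 bp and replicate 2 one of 159 at -128 bp, both in the replicates' own sets. The ranked list of the conservative comparison held instead a peak at -267 bp with a signal of 129 and a score of 68, far under the limit, so Mondo counts as unbound in the conservative set. At SREBP, the regulator of fatty acid synthesis, an intronic summit of signal 372 lay 503 bp downstream of the TSS, just outside the limit. It was in both replicates' own sets (177 in replicate 1 and 176 in replicate 2). Just inside the limit lay the weaker Max summit (486 bp) and that of dys (-439 bp). With a reach of 1000 bp SREBP was bound, and the count became 13 of 39. At that reach 33.5% of all protein-coding genes were bound.

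Among the Hes-Hey genes, hry, the pair-rule repressor also called hairy, had a promoter peak of 167 in the conservative set, 102 in replicate 1 and 73.0 in replicate 2, at -326 bp. The others had none: dpn, a neural stem cell factor, had a best ranked score of 459, cwo, a clock repressor, 275, and Hey, a Notch target, 34. An intronic cwo peak 5637 bp downstream of its TSS was in both replicates' own sets (356 in the conservative set, 223 in replicate 1 and 135 in replicate 2).

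**Figure D3:**
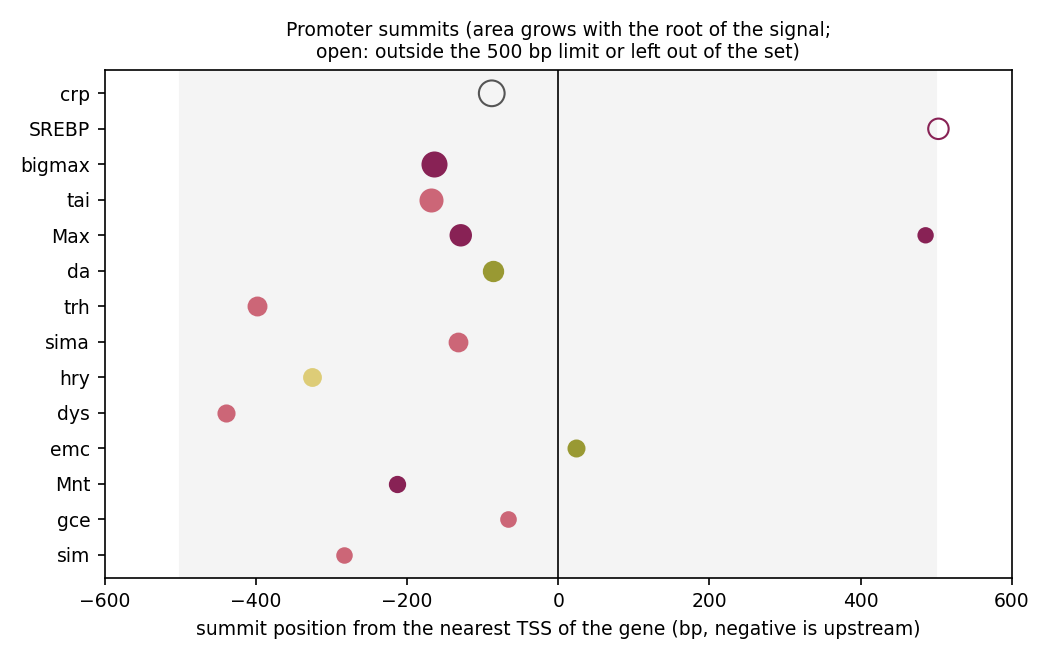
Summit positions are given in bp from the nearest TSS of each gene (horizontal axis, negative is upstream), with the area of a point growing with the square root of the signal and colours for classes (PAS pink, Myc-Max-SREBP purple, E protein and Id olive, Hes-Hey yellow, AP-4 grey). Filled points are conservative summits within 500 bp (shaded), nearly all upstream, and the open points are SREBP at 503 bp and the crp peak at -88 bp that is in the ranked list and not in the set.

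The crp gene, which encodes the AP-4 homologue Cropped, stood apart from the other unbound genes. Its promoter held a peak (2L, 16287676 to 16287961) with a signal of 931, a score of 1000 and rank 315 of 124532 in the ranked list of the conservative comparison, above the signal of any bound bHLH promoter. The summit lay at -88 bp from the crp TSS and 472 bp from that of pkaap. The peak over it had a signal of 562 in the ranked list of replicate 1 and 375 in that of replicate 2, each with a score of 1000, and all 4 thresholded sets lacked it. In all, 6 ranked peaks in or at crp passed the score limit and were not in the conservative set, 5 of them in introns, while crp was the only bHLH gene of the 39 with such peaks. Over the arms, 190 of the 6980 ranked peaks past the limit (2.72%) were left out of the set, and 11 of the 315 with a signal at least that of the crp peak. The deposited descriptions list a further input, of undescribed content, for the sets and not for the ranked lists, and its part in these absences was not tested. The crp gene did hold 1 weak summit of the set (75.3), in its 3' UTR. The 101 bases around the crp promoter summit lie at chr2L:16287768-16287868 (minus strand) and those of the SREBP summit at chr3L:19794388-19794488 (plus strand), shown because both are strong peaks that the rule does not count, a choice made after their values were seen. Neither stretch matched a motif, so there are no capitals.
crp: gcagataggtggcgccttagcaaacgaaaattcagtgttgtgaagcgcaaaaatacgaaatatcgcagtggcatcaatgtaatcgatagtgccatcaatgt
SREBP: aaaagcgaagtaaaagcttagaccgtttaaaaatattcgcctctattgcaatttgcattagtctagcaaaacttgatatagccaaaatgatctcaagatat

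In the ranked list of the conservative comparison, 16 of the 27 unbound genes had a peak within 500 bp of a TSS, crp among them, and 11 had none. Of these 11, Myc and Met had such a peak in the ranked list of replicate 1, and l(1)sc and tap in that of replicate 2. Over the family, in the list of the conservative comparison, 28 of 39 genes (71.8%) had such a peak, against 73.1% of all protein-coding genes. Apart from crp, the best scores ran from 34 to 740. The highest was at cato, a sense organ gene (740, an irreproducible discovery rate of 0.0165, where the set requires at most 0.01). In its own ranked lists cato reached 636 in replicate 1 and 61 in replicate 2.

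In the same list, 6 of the 8 proneural genes had no peak within 500 bp of a TSS. These were ac, sc and l(1)sc, which start neural precursors in the ectoderm, ase, which acts in the precursors, amos, a gene of olfactory sense organs, and tap. The ranked list of replicate 2 held weak peaks near l(1)sc (signal 13.1) and tap (32.1). The exceptions were cato and ato, the founder gene of chordotonal organs and photoreceptors (289). The nearest set summit lay 24405 bp from the TSS of ac and 64095 bp from that of l(1)sc. Of the Fer genes, which are related to the pancreas factor gene PTF1A of vertebrates, Fer2 reached a score of 313, Fer3 115 and Fer1 had no ranked peak. Among the mesodermal genes the best scores were 216 at twi, which specifies mesoderm, 91 at HLH54F, a gene of the caudal visceral mesoderm, and 34 at nau, the fly MyoD gene. Hand, a gene of heart and visceral muscle, had no ranked peak. The 27 unbound genes lay 0.503 to 82.9 kb from the nearest set summit, with 9 within 5 kb and 11 beyond 10 kb, and Mondo was the farthest. These distances were not counted for the other unbound protein-coding genes.

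**Figure D4:**
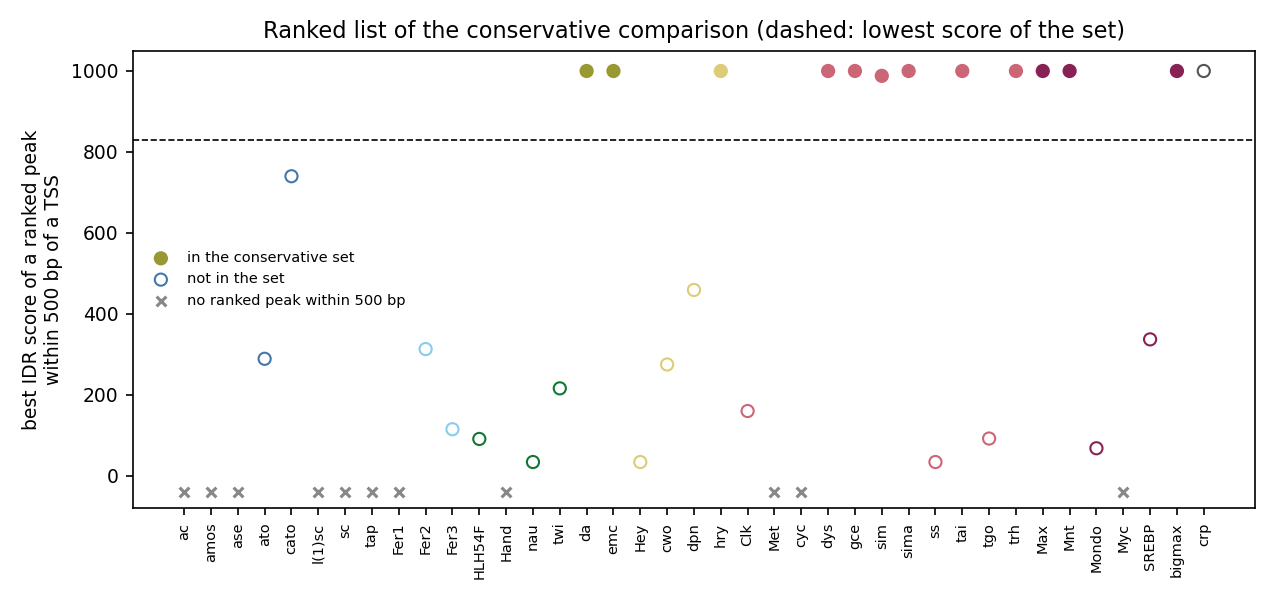
For each of the 39 genes the highest score of a peak within 500 bp of a TSS in the ranked list of the conservative comparison is shown (vertical axis, score up to 1000), filled where the gene has a promoter summit in the conservative set, open where it has none, with a cross where that list has no peak there. Genes are ordered by class, proneural genes (blue) at the left, then Fer (light blue), mesodermal (green), E protein and Id (olive), Hes-Hey (yellow), PAS (pink), Myc-Max-SREBP (purple) and AP-4 (grey). The dashed line is the lowest score of the set, 830, and crp is the open point at 1000.

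Within the genes, conservative summits were found in 14 of the 39 bHLH genes, 28 summits in all, where 16.4% of all protein-coding genes had one. Longer genes held more of them. Of 20 bHLH genes under 5 kb, 3 had a summit inside (7.45% of all genes of that length), of 8 genes of 5 to 20 kb, 4 had one (35.1%), and of 11 genes of 20 kb or more, 7 had one (62.8%). The bHLH genes had a median length of 4.09 kb, against 2.17 kb over all protein-coding genes. Of the gene-body summits, 23 lay outside the promoter of their gene, 20 of these in introns, 2 in 3' UTRs and 1 in a coding exon. In both replicates' own sets 16 of the 23 had an overlapping peak, and 5 had one in neither.

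The PAS and Myc-Max-SREBP genes held 22 of the 28 gene-body summits, and they also make up 369.6 of the 518.8 kb of the family. Per 100 kb of gene this was 5.95 summits, against 5.40 over all 39 genes. The proneural, Fer and mesodermal genes held 1 summit, at twi, or 1.07 per 100 kb, and twi alone makes up 63.0 of their 93.7 kb. That twi summit (153) lay 22 bp from the TSS of CG9896, which is the nearest promoter to it. The strongest gene-body summit was at gce (X, 15298275 to 15298681). Its signal was 1083 in the conservative set, 590 in replicate 1 and 497 in replicate 2, and it lay in an intron at -547 bp from the second gce TSS. It was thus just outside the limit, while the gce promoter summit that counted was 95.2.

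Long introns of other bHLH genes held further peaks. The sima gene had 4 summits inside, the strongest (599) 34502 bp from its TSS farthest upstream, with 328 in replicate 1 and 259 in replicate 2. Mnt also had 4, led by one of 518 at 1028 bp downstream of its TSS farthest upstream (296 in replicate 1 and 239 in replicate 2). The tai gene had 4, from 79.9 to 240. Myc, with no promoter summit, held a pair of intronic summits 8005 and 8782 bp downstream of its TSS. Their signals were 252 (144 in replicate 1 and 102 in replicate 2) and 235 (140 in replicate 1 and 87.9 in replicate 2).

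**Figure D5:**
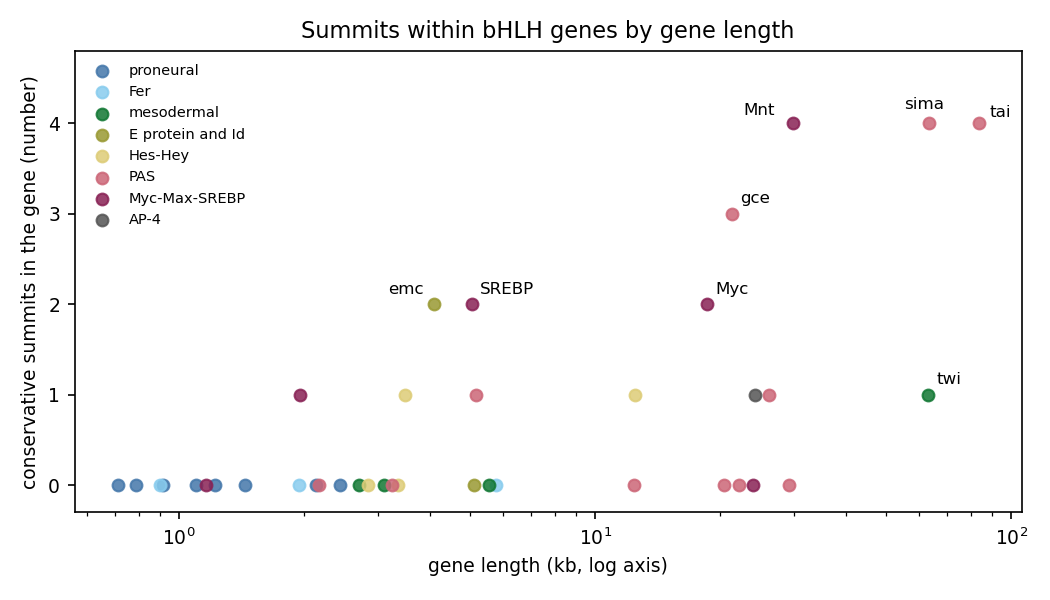
Each point is a bHLH gene, placed by its length (horizontal log axis, kb) and by the number of conservative summits inside it (vertical axis), coloured by class, with genes of 2 or more summits and twi named. Genes with 3 or more summits (gce, Mnt, sima, tai) are all over 20 kb long, and the proneural genes lie at 0.

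The general E-box was no more frequent at these summits than at all promoter summits. Motifs were searched on both strands within 100 bp of the 13 conservative summits at bHLH promoters and of all 3467 promoter summits. CANNTG, the general E-box, was in 7 of the 13 windows (53.8%), against 61.2% of all. CAGCTG, a proneural type, was in 1 (7.69%), against 13.2%, and CACCTG in 0, against 7.27%. CACGTG, the form read by Myc-Max and Clock-Cycle dimers, was in 2 (15.4%), against 2.54%, and ACGTG, the core of PAS sites, in the same 2 (15.4%), against 15.7%. CACGTG is its own reverse complement, is a CANNTG and holds ACGTG, so these counts overlap. The promoter motifs GAGAG, TATCGATA and GGTCACAC were in 4 (30.8%, against 22.5%), 1 (7.69%, against 10.3%) and 1 (7.69%, against 5.83%). A match is a description of the letters and not a site.

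The windows with CACGTG were those of Mnt and of the weaker Max summit, both genes of the Max network, with the match starting 60 bp downstream of the Mnt summit and at -65 bp from the Max summit on the strand of the gene. Neither lay within 50 bp of a summit, where CACGTG was in 0 of the 13 windows and in 1.04% of all. The weaker Max summit lay 68 bp from a TSS of Mettl5 and CG42374 and 486 bp from that of Max. Distance alone thus gives that summit to the neighbours. The 201 bases of the Mnt window are shown with CACGTG in capitals, at chrX:3687922-3688122 (plus strand), a choice made after the counts were seen.
Mnt: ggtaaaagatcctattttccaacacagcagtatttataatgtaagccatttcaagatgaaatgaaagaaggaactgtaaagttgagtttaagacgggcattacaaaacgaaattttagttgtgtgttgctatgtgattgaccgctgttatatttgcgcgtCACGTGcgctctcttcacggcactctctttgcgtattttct

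Other bHLH genes and genes of bHLH partners and targets, listed with earlier results of these data known, were counted by the same rule. Of 18 other bHLH genes 5 were bound (27.8%): E(spl)m3-HLH (signal 393), net (289), tx (124.8), E(spl)mbeta-HLH (114) and Oli (101). The share over all protein-coding genes was 29.9%. Of 18 partner and target genes 10 were bound (55.6%). They were led by gro, the corepressor of Hes proteins (977), chn, a zinc finger gene of sense organs (632), and tin, the heart regulator (505). Hph, the prolyl hydroxylase that controls Sima, had 376, the clock genes Pdp1 and vri 373 and 229, the muscle regulator Mef2 253 and neur, a Notch pathway ubiquitin ligase gene, 179. The weakest were phyl (84.9) and pnr (76.1), in neither replicate's own set. Of the bound partner and target genes, all but phyl and tin have more than 1 TSS, and of those not bound only tim does. Over all protein-coding genes, 46.0% of those with more than 1 TSS were bound and 24.0% of those with 1. The part of TSS number in this count was not tested. The clock genes per and tim had no conservative promoter summit, though tim had one in the own set of replicate 1, and there was none at SCAP, S1P and S2P, whose products process the SREBP protein.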

How the data were processed

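ChIP-seq of 2 biological replicates was analysed from 8 peak lists that the authors deposited on dm6: a conservative, an optimal and 1 set per replicate, each selected by irreproducible discovery rate (IDR), and the ranked list behind each. Per the deposited file descriptions, the conservative and optimal lists come from both replicates. The signal of a peak is the deposited value of the authors' caller and was compared within a list. The score is the deposited IDR score, and its lowest value in each set, 830, is an IDR of 0.01 by the −log10 column that the authors deposited. Peak caller and aligner were not given in the sources used here, and 16 further columns with values per sample in the series lists were not used.

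Genes with a summit at most 500 bp from an annotated TSS of theirs count as bound (Ensembl release 115). Summits are counted from 1. Percentages over all genes use the same rule. The counting steps were tested on simulated peaks. No test was made, since the series has 1 group, and replicates are given side by side. Members, classes, gene lists and motifs were chosen with earlier results of these data known. All 39 genes are accounted for, and of the other lists the bound genes are named, with the clock and SREBP partners without a summit added after their values were seen. Alternatives were a reach of 200 or 1000 bp, the optimal set, each replicate's own set, the peaks with a signal at or above the median, peak centres, peak overlap, a motif window of 50 bp and, added after the data were seen, the ranked list at the same score and dys left out. Python 3.11.15 with numpy 2.4.6, pandas 2.3.3 and matplotlib 3.10.9 was used.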

Additional observations from a re-analysis of the deposited data

How the results depend on the processing

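The count of bound bHLH genes was 12 of 39 and stayed at 11 to 13 with a reach of 1000 bp, the optimal set, peak centres, peak overlap (13 each, SREBP added), the ranked list at the same score (13, crp added) and dys left out (11). It fell to 7 with a reach of 200 bp, where hry, trh, sim, dys and Mnt dropped out, and to 7 with the peaks at or above the median signal, where emc, sim, dys, gce and Mnt did. Leaving out a replicate, which is to use the own set of the other, gave 10 to 11, with Mondo added in both cases, SREBP added without replicate 1, sim and gce lost in both cases, and da and emc lost without replicate 1. In the optimal set SREBP was added by another peak than its summit at 503 bp, one at -351 bp (signal 66.0, score 909). The share of all protein-coding genes bound also moved, to 23.25% with a reach of 200 bp and 21.56% with the peaks at or above the median signal. It was 33.54% with a reach of 1000 bp, 31.36% in the optimal set and 31.46% with peak overlap. Peak centres gave 29.85% and the ranked list at the same score 30.48%. Without replicate 1 the share was 23.87%, and without replicate 2 it was 30.14%. The PAS class had 3 bound with a reach of 200 bp and 3 with the stronger peaks, and the Hes-Hey class 0 with a reach of 200 bp. The E protein and Id genes had 1 with the stronger peaks and 0 to 2 when a replicate was left out, the Myc-Max-SREBP class 4 to 5 and the other bHLH genes 3 to 6. The other bHLH genes had 2 with the stronger peaks, and AP-4 had 1 from the ranked list at the same score. Genes with a summit inside were 9 with the stronger peaks, and the share of all protein-coding genes was not counted for this. The proneural, Fer and mesodermal classes had 0 bound under each of these alternatives. No read depth is given, and what it limits was not tested.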

Other observations

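The clustered bHLH gene complexes of the fly differed in how many peaks they held. The achaete-scute complex, taken from ac to ase on X (370031 to 463176, 93.1 kb), held 0 conservative summits and 0 in each replicate's own set, where the X carried 5.54 conservative summits per 100 kb. Its 22 ranked peaks had scores of up to 229 and signals of up to 46.9, and the X carried 95.5 ranked peaks per 100 kb. The Enhancer of split complex, whose bHLH repressors act below Notch, from E(spl)mdelta-HLH to E(spl)m8-HLH on 3R (25997621 to 26041008, 43.4 kb), held 6 conservative summits, 6 in replicate 1 and 4 in replicate 2, where 3R carried 4.94 conservative summits per 100 kb. It held 60 ranked peaks, and 3R carried 98.8 per 100 kb. Of the E(spl) bHLH genes counted above, only E(spl)m3-HLH and E(spl)mbeta-HLH had a conservative promoter summit. These intervals were chosen after the data were seen, and the difference between them was not tested.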
